A study of Mus musculus with 6 samples.

Results

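In sorted mouse small-cell lung cancer cells, 10 genes were examined that govern how a cell takes up glucose, commits it to glycolysis and disposes of the pyruvate. They are the glucose transporter genes Slc2a1 and Slc2a3, the hexokinase genes Hk1 and Hk2, the phosphofructokinase genes Pfkl, Pfkm and Pfkp, their regulator Pfkfb3, the lactate dehydrogenase gene Ldhb and the pyruvate dehydrogenase kinase gene Pdk1. The members were given as a list of names, drawn up with earlier results of these data known, and all 10 were measured, among 22179 genes in all. A gene was represented by the rows of the array table that the platform annotation assigns to it alone. On GRCm38.p6 the called members lie at chr4:119108745-119137330 (Slc2a1), chr6:122727809-122802363 (Slc2a3), chr10:62268855-62379920 (Hk1) and chr6:142490249-142507957 (Ldhb); a row summarises probes along the transcript and is not tied to 1 exon. The rule gave 12 rows, with 2 rows each for Slc2a1 and Pdk1, and the row with the higher mean over the 6 arrays supplied the main value.

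The tumours arose in mice with conditional alleles of Rb, p53 and p130 after intratracheal Adeno-Cre, and were taken 5 to 6 months later. All animals also carried a green fluorescent protein (GFP) reporter of Hes1, a transcriptional repressor downstream of Notch. Tumours, pooled from 3 mice per the treatment protocol, were sorted into GFP-negative and GFP-high cells, and the RNA of 3 samples of each sort was measured on Affymetrix gene arrays. Every group thus shares the 3 conditional alleles, the Cre treatment, the reporter and the tissue. Whether the alleles were recombined in all sorted cells was not examined here. The sort is the only difference the labels give, and the negative gate is labelled as negative or low. The labels call the samples biological replicates without saying which mice went into which pool, and neither the promoter that drives Cre nor the cell type it reached is named in them. If pools were shared, the p-values measure only the spread between these samples, which may be technical.

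Glucose enters cells through facilitative transporters, of which GLUT1 (Slc2a1) is the widely used form and GLUT3 (Slc2a3) a high-affinity form best known from neurons. Hexokinases then trap it as glucose 6-phosphate, and phosphofructokinase makes the committed step of glycolysis, stimulated by fructose 2,6-bisphosphate from PFKFB enzymes. Pyruvate at the end of the pathway is either reduced to lactate by lactate dehydrogenase, whose A and B subunits mix in tetramers, or enters mitochondria through pyruvate dehydrogenase, which PDK kinases switch off. Tumours often express these genes strongly, and several are known targets of hypoxia-inducible factor.

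The windows just upstream of the annotated starts of Slc2a1, Hk1 and Ldhb are shown because these are the members with a window that passed the test, and because HIF, MYC and HES proteins are known to bind short elements of the kind marked. Each is the 250 bases before a start, from RefSeq on GRCm38.p6, read 5′ to 3′ on the gene's strand: Slc2a1 at chr4:119108495-119108744 (plus strand), Hk1 at chr10:62379909-62380158 and chr10:62340422-62340671 (minus strand, 2 starts) and Ldhb at chr6:142507958-142508207 (minus strand). Capitals mark every match, on either strand, to ACGTG or GCGTG (the hypoxia-response cores), CACGTG (the E-box) or CACGCG (a site class bound by HES factors). CACGTG contains ACGTG, and CACGCG contains GCGTG read on the other strand, so such matches overlap.
Slc2a1: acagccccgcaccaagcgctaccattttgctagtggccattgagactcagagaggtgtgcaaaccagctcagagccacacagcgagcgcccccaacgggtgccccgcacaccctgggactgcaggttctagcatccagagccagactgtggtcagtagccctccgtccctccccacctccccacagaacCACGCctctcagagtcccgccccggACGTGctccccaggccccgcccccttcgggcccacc
Hk1, first start: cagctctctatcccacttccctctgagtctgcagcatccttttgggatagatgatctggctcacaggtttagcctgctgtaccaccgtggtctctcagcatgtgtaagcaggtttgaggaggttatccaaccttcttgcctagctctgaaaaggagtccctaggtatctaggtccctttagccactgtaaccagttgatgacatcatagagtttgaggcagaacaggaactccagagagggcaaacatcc
Hk1, second start: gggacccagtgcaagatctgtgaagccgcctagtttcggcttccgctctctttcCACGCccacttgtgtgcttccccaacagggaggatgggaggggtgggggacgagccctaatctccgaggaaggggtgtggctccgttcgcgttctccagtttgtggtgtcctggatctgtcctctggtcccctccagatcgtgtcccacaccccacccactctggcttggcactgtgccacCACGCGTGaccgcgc
Ldhb: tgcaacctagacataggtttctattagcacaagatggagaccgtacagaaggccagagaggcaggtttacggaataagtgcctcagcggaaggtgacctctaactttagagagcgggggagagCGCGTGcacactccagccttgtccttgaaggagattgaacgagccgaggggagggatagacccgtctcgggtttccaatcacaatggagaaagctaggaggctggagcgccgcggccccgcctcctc

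The Slc2a1 window held 1 match to ACGTG and 1 to GCGTG. The first Hk1 window held 0 matches to any of the 4 motifs, while the second held 3 to GCGTG and 2 to CACGCG. The Ldhb window held 1 match each to GCGTG and CACGCG. Windows were found for 9 of the 10 members, all but Slc2a3, and numbered 15 in all, since several genes have more than 1 start and some windows overlap. ACGTG occurred in 6 of the 15, GCGTG in 9, CACGTG in 2 and CACGCG in 3. Among 32851 windows of the same length for all genes the shares with a match were 16.6%, 28.2%, 6% and 7.6%. The matches are a description of letters and not of binding. The array rows do not separate starts of a gene.

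Hes1 itself read 6.93, 6.98 and 6.65 on the log2 scale in the GFP-negative arrays and 10.49, 10.27 and 10.43 in the GFP-high arrays, so the arrays fit the sort labels. Array medians over all rows lay between 5.30 and 5.43. Values of all genes correlated at 0.987 to 0.991 between arrays of a group and at 0.918 to 0.940 across groups. Levels of cell type markers differed widely between the 2 sorts. Of 11 measured neuroendocrine markers 10 were lower in GFP-high cells and 1, Nkx2-1, was higher, the list's mean level being 7.71 to 8.63 in GFP-high arrays and 10.003 to 10.07 in GFP-negative arrays. The list's median was 7.80, 7.40 and 8.70 in GFP-high replicates 1, 2 and 3, highest in replicate 3. Of 12 club and secretory cell markers 10 were higher, 1 was lower and 1 did not pass (10.33 to 10.70 against 6.99 to 7.55). Of 12 alveolar type 2 markers 10 were higher (9.39 to 9.88 against 6.06 to 6.34), and all 10 alveolar type 1 markers were higher (8.50 to 8.81 against 6.49 to 6.61). All 11 measured mitosis genes were lower (7.45 to 7.61 against 8.52 to 9.07). Among stromal and blood lists 1 of 9 macrophage, 1 of 8 fibroblast and 1 of 4 measured erythroid markers were lower with none higher, and of 8 endothelial markers 1 was higher (Kdr) and 1 lower (Vwf). The part of these cell types and of proliferation in the differences given here was not tested. In such bulk samples, fewer cells of a type and less RNA per cell cannot be told apart.

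Across all genes 30% passed an adjusted p under 0.05 (limma, Benjamini-Hochberg over all 22179 genes), 13% as higher in GFP-high cells and 17% as lower. Of the 10 members 4 passed, 2 as higher and 2 as lower, a share of 40% that is not far from that background. Slc2a3 and Ldhb were higher in GFP-high cells, and Slc2a1 and Hk1 were lower. The remaining 6 did not pass. The groups did not overlap for 7 members, while they did not overlap for 44.6% of all genes. The median log2 fold change of the members was 0.08, against 0.01 over all genes.

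**Figure D1:**
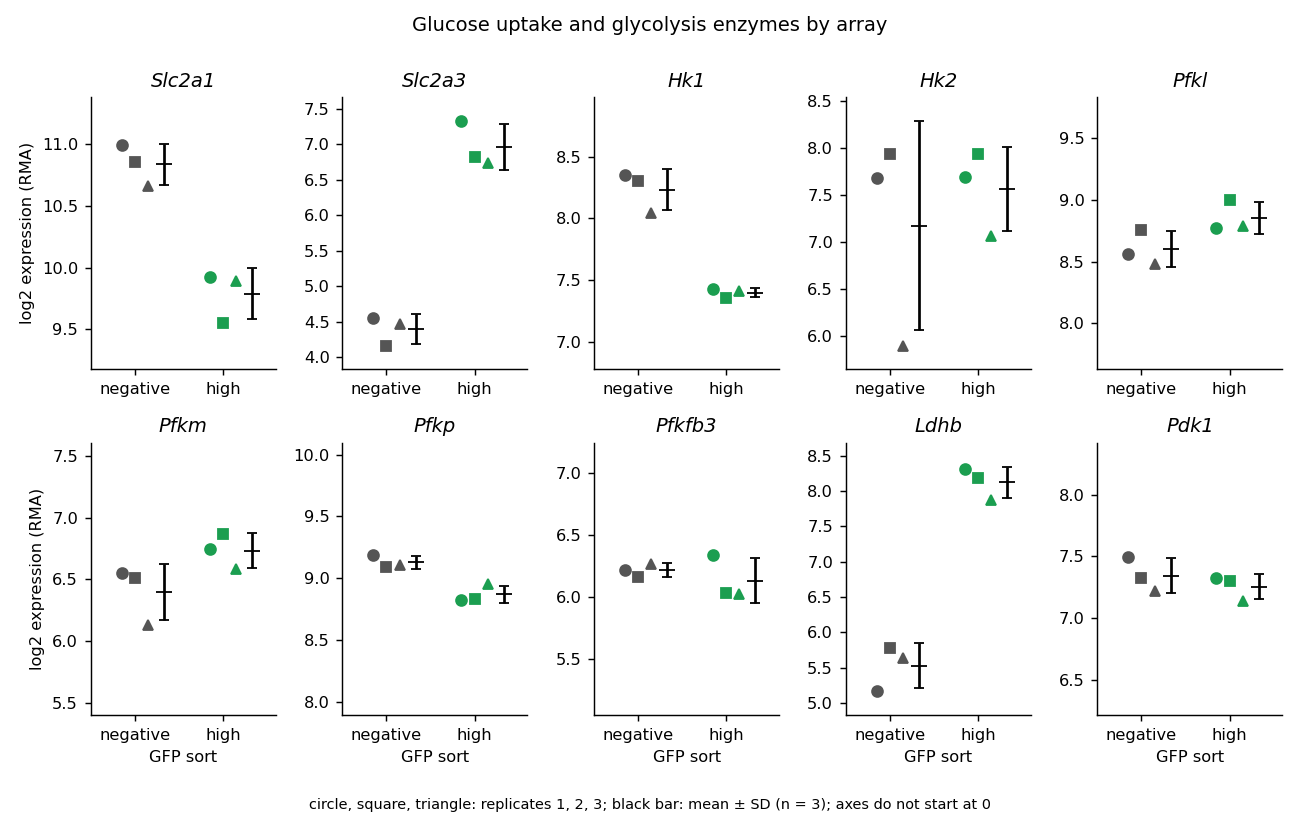
Log2 expression (RMA) of the 10 members in each array, GFP-negative in grey and GFP-high in green, with circle, square and triangle for replicates 1, 2 and 3 and a black bar for the mean ± SD of 3 arrays; the axes do not start at 0. Slc2a3 and Ldhb lie higher in all 3 GFP-high arrays, Slc2a1 and Hk1 lower, and Hk2 in GFP-negative replicate 3 lies at 5.90, far from the other 2 GFP-negative arrays.

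The transporter genes moved in opposite directions. Slc2a1, encoding GLUT1, read 10.99, 10.86 and 10.66 in the GFP-negative arrays and 9.92, 9.55 and 9.89 in the GFP-high arrays. Every GFP-high array was below every GFP-negative array. The mean fell from 10.83 ± 0.17 to 9.79 ± 0.21 (SD, n = 3 each), a log2 fold change of -1.05 ± 0.14 (SE) or a 2.07-fold lower value (adjusted p = 0.000712 by limma). Slc2a3, encoding GLUT3, read 4.56, 4.16 and 4.47 in the GFP-negative arrays, just above the lower quartile of an array (3.97 to 4.14), and 7.33, 6.82 and 6.73 in the GFP-high arrays. Its mean rose from 4.40 ± 0.21 to 6.96 ± 0.32 (SD, n = 3 each), a log2 fold change of 2.56 ± 0.18 (SE) or 5.91-fold (adjusted p = 1.9e-05 by limma). The probes of different genes do not give comparable levels, so the values do not say which transporter was the more abundant in either sort.

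The second Slc2a1 row was lower in GFP-high cells too, with a smaller difference. It read 5.96, 6.00 and 5.88 in the GFP-negative arrays and 5.51, 5.59 and 5.63 in the GFP-high arrays, again without overlap. Its log2 fold change was -0.37 ± 0.11 (SE), with an adjusted p of 0.0294 by limma over the 23520 rows that name a single gene, of which 29.8% passed. The threshold was missed when the fit took in every row of the table (0.0576), without GFP-negative replicate 1 (0.0861) or 2 (0.0802), or without GFP-high replicate 1 (0.0998), 2 (0.0638) or 3 (0.0502). The main Slc2a1 row kept its call in all 14 alternatives, with log2 fold changes from -1.13 to -0.71, the latter being the mean of both rows. For Slc2a3 the 14 alternatives gave 2.38 to 2.68, all past the threshold.

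Of the other sugar transporter genes on a fixed list, 3 of 12 were higher, 2 were lower and 7 did not pass, with a median log2 fold change of -0.03. Slc5a1, the sodium-coupled glucose transporter SGLT1, rose by 1.32 ± 0.14 on the log2 scale (adjusted p = 0.000161 by limma). It read 4.36, 4.04 and 4.13 in the GFP-negative arrays, near the lower quartile of an array (3.97 to 4.14), and 5.67, 5.52 and 5.31 in the GFP-high arrays. Slc2a10 rose by 1.13 ± 0.19. Of genes named after their values were seen, Slc2a12 rose by 0.63 ± 0.17 (adjusted p = 0.0224 by limma), but missed the threshold without GFP-negative replicate 2 (0.077), without GFP-high replicate 1 (0.0574) or 3 (0.0584) and without moderation (0.106). Its GFP-negative values, 3.71, 3.41 and 3.65, lay below the lower quartile of an array, and its GFP-high values were 4.19, 3.92 and 4.53. The fructose transporter gene Slc2a5, chosen likewise, fell by 0.49 ± 0.11. Slc2a13, a proton-coupled inositol transporter of the same family, fell by 1.30 ± 0.23 on the log2 scale (adjusted p = 0.0024 by limma), a call lost in a fit without variance moderation (0.0503).

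Hk1, the hexokinase of most tissues, was lower in GFP-high cells. It read 8.35, 8.30 and 8.04 in the GFP-negative arrays and 7.43, 7.36 and 7.42 in the GFP-high arrays, which were nearly alike. The mean was 7.40 ± 0.04 against 8.23 ± 0.17 (SD, n = 3 each), a log2 fold change of -0.83 ± 0.12 (SE) or a 1.78-fold lower value (adjusted p = 0.000924 by limma). All 14 alternatives kept this call, between -0.93 and -0.76. A further row is annotated to both Hk1 and Hk1os, its antisense neighbour, and was not used for the gene. Its log2 fold change was -0.33 ± 0.12 (SE) and did not pass (adjusted p = 0.102 by limma over every row of the table).

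Hk2, the inducible hexokinase bound to mitochondria, varied within the GFP-negative group. It read 7.68 and 7.94 in GFP-negative replicates 1 and 2 but 5.90 in replicate 3, and 7.69, 7.93 and 7.07 in the GFP-high arrays. The GFP-high arrays thus lay within the range of the GFP-negative ones. The log2 fold change was 0.39 ± 0.48 (SE), with a 95% interval from -0.72 to 1.497 (adjusted p = 0.607 by limma), wide enough to hold changes of over 1 upward. Without GFP-negative replicate 3 it was -0.25 (adjusted p = 0.529 by limma), so that array set the sign. Replicate 3 was 1.91 below the mean of the other GFP-negative arrays, the lowest such difference of all 22179 genes.

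Of 3 other measured hexokinase genes, 1 was higher and 2, Hkdc1 (0.07 ± 0.19) and the regulator Gckr (0.18 ± 0.14), did not pass. Hk3, a hexokinase abundant in myeloid cells, rose by 0.55 ± 0.12 on the log2 scale (adjusted p = 0.00789 by limma), from 4.81, 4.81 and 4.97 in the GFP-negative arrays to 5.55, 5.27 and 5.41 in the GFP-high arrays. Leukocyte markers were measured in the same arrays. Of 10 pan-leukocyte markers 1 was higher (Lcp1), 1 was lower (Coro1a) and 8 did not pass, and their mean level was 5.76 to 6.04 in GFP-high and 5.61 to 5.87 in GFP-negative arrays. Ptprc, the leukocyte antigen CD45, averaged 5.05 in the GFP-negative and 4.59 in the GFP-high arrays and did not pass (adjusted p = 0.170 by limma). Cd52, on the same list, went the other way (5.32 and 5.74) and did not pass either (adjusted p = 0.164 by limma). The part of leukocytes in the Hk3 difference was not tested. Of 8 neutrophil markers 1 was higher and 7 did not pass, at mean levels of 4.001 to 4.26 against 3.96 to 3.98.

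The 3 phosphofructokinase genes did not pass. The groups did not overlap for any of them, which also held for 44.6% of all genes. Pfkl, the liver-type subunit, read 8.56, 8.76 and 8.48 in the GFP-negative arrays and 8.77, 8.999 and 8.78 in the GFP-high arrays. Its lowest GFP-high value was within 0.02 of its highest GFP-negative value. The log2 fold change was 0.25 ± 0.13 (SE; 95% interval -0.03 to 0.54, adjusted p = 0.177 by limma). Pfkm, the muscle-type subunit, read 6.55, 6.51 and 6.13 against 6.74, 6.87 and 6.59, a log2 fold change of 0.33 ± 0.15 (SE; 95% interval 0.0012 to 0.67, adjusted p = 0.127 by limma). Pfkp, the platelet-type subunit, went the other way, reading 9.19, 9.09 and 9.11 in the GFP-negative arrays and 8.82, 8.83 and 8.95 in the GFP-high arrays. Its log2 fold change was -0.26 ± 0.11 (SE; 95% interval -0.50 to -0.02, adjusted p = 0.105 by limma), and a fit without variance moderation called it (adjusted p = 0.0374). The intervals leave room for differences of about the size measured, and differences above 0.7 in either direction lie outside all 3.

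Pfkfb3, which makes the fructose 2,6-bisphosphate that activates phosphofructokinase, gave no detectable difference. It read 6.22, 6.16 and 6.27 in the GFP-negative arrays and 6.34, 6.03 and 6.02 in the GFP-high arrays, with overlap. The log2 fold change was -0.09 ± 0.13 (SE; 95% interval -0.37 to 0.20, adjusted p = 0.666 by limma). Its relative Pfkfb2 rose by 1.69 ± 0.15 on the log2 scale (adjusted p = 6.5e-05 by limma), from 7.21, 7.23 and 7.08 to 8.99, 9.05 and 8.57. Fbp1, the phosphatase that reverses the phosphofructokinase step, fell by 1.20 ± 0.17 (adjusted p = 0.000795 by limma), from 6.40, 5.92 and 6.56 to 5.16, 4.98 and 5.14. Of the 5 measured genes of this control step outside the members, 1 was higher, 1 was lower and 3 did not pass, among them the muscle-type Fbp2 (0.27 ± 0.18).

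**Figure D2:**
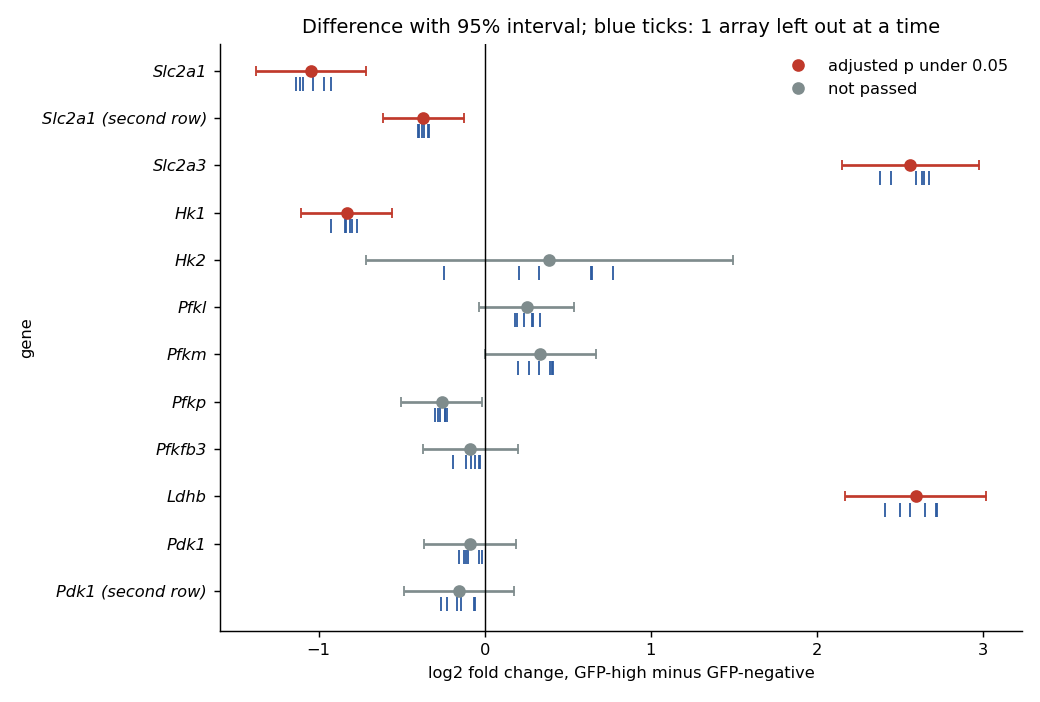
Log2 fold change, GFP-high minus GFP-negative, of the 12 member rows (dots) with the 95% interval of the limma fit, red where the adjusted p was under 0.05 and grey where it was not; blue ticks give the value with each of the 6 arrays left out in turn. The main rows of Slc2a1, Slc2a3, Hk1 and Ldhb keep their sign with every array left out, while the ticks of Hk2 run from -0.25 to 0.77.

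Ldhb, the subunit prevalent in heart-type lactate dehydrogenase, and Slc2a3 had the largest differences of the members, and their order changed without GFP-negative replicate 1 (2.41 for Ldhb and 2.64 for Slc2a3) or without GFP-high replicate 2 (2.56 and 2.63). Ldhb read 5.16, 5.78 and 5.64 in the GFP-negative arrays and 8.31, 8.19 and 7.88 in the GFP-high arrays, more than 2 log2 units apart at the closest. The mean rose from 5.53 ± 0.33 to 8.12 ± 0.22 (SD, n = 3 each), a log2 fold change of 2.60 ± 0.19 (SE) or 6.04-fold (adjusted p = 2.0e-05 by limma). The 14 alternatives gave 2.41 to 2.72, all past the threshold. Ldha, the muscle-type subunit, was lower in GFP-high cells by a small amount, reading 8.67, 8.68 and 8.56 in the GFP-negative arrays and 8.22, 8.14 and 8.30 in the GFP-high arrays. Its log2 fold change was -0.42 ± 0.11 (SE; adjusted p = 0.0187 by limma). The threshold was missed on leaving out GFP-negative replicate 1 (0.0655) or 2 (0.0536) or GFP-high replicate 1 (0.0560) or 2 (0.0608).

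Genes that move lactate across the membrane changed in both directions. Slc16a3, encoding the lactate exporter MCT4, fell by 1.35 ± 0.11 on the log2 scale (adjusted p = 5.5e-05 by limma), from 8.21, 8.39 and 8.22 to 6.89, 6.86 and 7.03. Slc16a1, encoding MCT1, rose by 1.06 ± 0.16 (adjusted p = 0.00111 by limma), from 7.63, 7.71 and 7.39 to 8.90, 8.38 and 8.62. Ldhd, the mitochondrial D-lactate dehydrogenase, rose by 0.92 ± 0.12. Bsg, encoding their chaperone basigin and named after its value was seen, rose by 0.75 ± 0.11 (adjusted p = 0.000975 by limma). Of the 7 genes on this list 3 were higher, 2 were lower and 2 did not pass, a share of 71.4% called beside the 30% of all genes, with a median of -0.06.

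Pdk1, a kinase that inactivates pyruvate dehydrogenase, gave no detectable difference in either row. The main row read 7.50, 7.32 and 7.22 in the GFP-negative arrays and 7.32, 7.30 and 7.14 in the GFP-high arrays, with overlap. Its log2 fold change was -0.09 ± 0.12 (SE; 95% interval -0.37 to 0.19, adjusted p = 0.636 by limma). The second row, at 3.21 to 3.62 in GFP-negative and 3.10 to 3.42 in GFP-high arrays, gave -0.15 ± 0.15 (SE; adjusted p = 0.492 by limma over the rows naming a single gene). Its relative Pdk4 rose by 1.498 ± 0.21 (adjusted p = 0.000714 by limma), from 5.03, 5.00 and 5.02 to 6.05, 6.52 and 6.97. Pdk2, named after its value was seen, rose by 0.99 ± 0.15 (adjusted p = 0.00099 by limma). Pdk3 gave -0.03 ± 0.11 and changed sign in 3 alternatives. Pdha1, a subunit of the enzyme itself, rose by 0.44 ± 0.13 (adjusted p = 0.0283 by limma), but missed the threshold without GFP-negative replicate 2 (0.058) or 3 (0.0891) or GFP-high replicate 1 (0.0833), 2 (0.0667) or 3 (0.0596), and without moderation (0.0623). Pdk3 and Pdha1 were named after their values were seen. The other measured genes of the pyruvate dehydrogenase complex, named likewise, lay below 0. Dld was lower (-0.51 ± 0.15, adjusted p = 0.0322 by limma), and Pdhb (-0.30 ± 0.13), Dlat (-0.24 ± 0.13) and Pdhx (-0.06 ± 0.12) did not pass. Pdp1, the phosphatase that reactivates the complex, fell by 1.29 ± 0.16 (adjusted p = 0.00042 by limma), from 8.27, 8.08 and 8.04 to 6.96, 6.50 and 7.06. Pcx, pyruvate carboxylase, which turns pyruvate into oxaloacetate, rose from 6.37, 6.66 and 6.76 to 9.40, 9.37 and 9.12, by 2.695 ± 0.14 on the log2 scale or 6.48-fold (adjusted p = 3.3e-06 by limma). In this list of 12 measured genes 4 were higher, 2 were lower and 6 did not pass, with a median of -0.05.

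**Figure D3:**
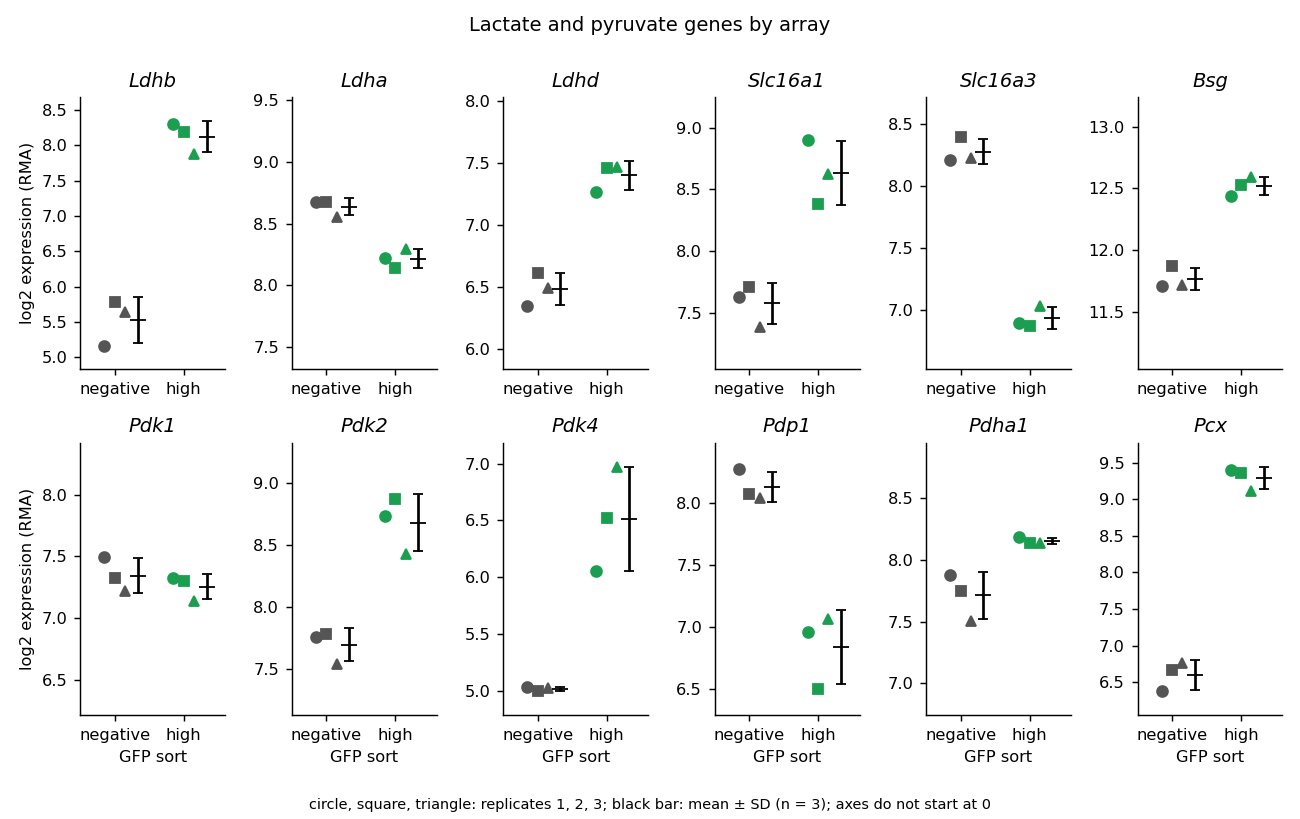
Log2 expression (RMA) of 12 genes of lactate and pyruvate handling in each array, GFP-negative in grey and GFP-high in green, with circle, square and triangle for replicates 1, 2 and 3 and a black bar for the mean ± SD of 3 arrays; the axes do not start at 0. Ldhb, Ldhd, Slc16a1, Bsg, Pdk2, Pdk4, Pdha1 and Pcx lie higher in all 3 GFP-high arrays, Ldha, Slc16a3 and Pdp1 lie lower, and Pdk1 overlaps.

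The genes of the steps between phosphofructokinase and pyruvate were lower or did not pass. Of 10 measured members of that list 4 were lower, none was higher and 6 did not pass, with a median log2 fold change of -0.30. The called share of 40% stands beside 30% for all genes, of which 17% passed as lower. Eno2, the enolase typical of neurons and neuroendocrine cells, fell by 1.27 ± 0.15 (adjusted p = 0.000282 by limma), from 7.39, 7.48 and 7.20 to 5.89, 6.02 and 6.35. Pgam1, phosphoglycerate mutase, fell by 0.68 ± 0.12 (adjusted p = 0.00233 by limma). Smaller differences were those of Pgk1, phosphoglycerate kinase (-0.41 ± 0.12, adjusted p = 0.0362 by limma), and Gapdh (-0.38 ± 0.10, adjusted p = 0.0239 by limma). Pkm, pyruvate kinase, did not pass (-0.30 ± 0.11, adjusted p = 0.0731 by limma), though it did in 4 alternatives (0.0239 to 0.0496). Tpi1, named after its value was seen, gave 0.02 ± 0.11. Of the rest, named likewise and not passing, Pgam2 (0.33 ± 0.13, adjusted p = 0.0849 by limma) and Aldoc (0.16 ± 0.16) lay above 0. Eno3 (-0.30 ± 0.13) and Pklr (-0.14 ± 0.12) lay below 0. The call of Pgk1 was lost without GFP-negative replicate 1 (0.118) or 3 (0.0995) or GFP-high replicate 1 (0.0502), 2 (0.112) or 3 (0.0692), under quantile normalization (0.0616) and without variance moderation (0.0653). The call of Gapdh was lost without GFP-negative replicate 1 (0.0835) or 2 (0.0517) or GFP-high replicate 1 (0.0806) or 2 (0.0599), and with the mean of its rows (0.0535). Aldoa and Eno1 were not analysed here.

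The largest differences in the side pathways of glucose, those of H6pd and Pgm2, exceeded that of Eno2 but not those of Pcx, Ldhb and Slc2a3. H6pd, the hexose 6-phosphate dehydrogenase of the endoplasmic reticulum, rose by 1.96 ± 0.14 (adjusted p = 1.8e-05 by limma), and Pgd, of the oxidative pentose phosphate pathway, by 0.80 ± 0.15. In that list of 7 measured genes 2 were higher, none was lower and 5 did not pass, Pgls among them (-0.15 ± 0.11; median -0.08). Of 9 measured glycogen genes 2 were higher and 3 were lower (median -0.28). The phosphoglucomutase gene Pgm2 fell by 1.36 ± 0.20 and the glycogenin gene Gyg by 0.93 ± 0.13, while the brain-type glycogen phosphorylase gene Pygb rose by 0.85 ± 0.11. None of the 6 gluconeogenesis genes passed by limma, and 1 of them, G6pc3 (-0.48 ± 0.16), had an unadjusted p under 0.05; G6pc2 gave 0.24 ± 0.15 and G6pc 0.12 ± 0.16. G6pc3 passed in 4 alternatives (adjusted p from 0.0375 to 0.0498), the lowest with a trended and robust prior.

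**Figure D4:**
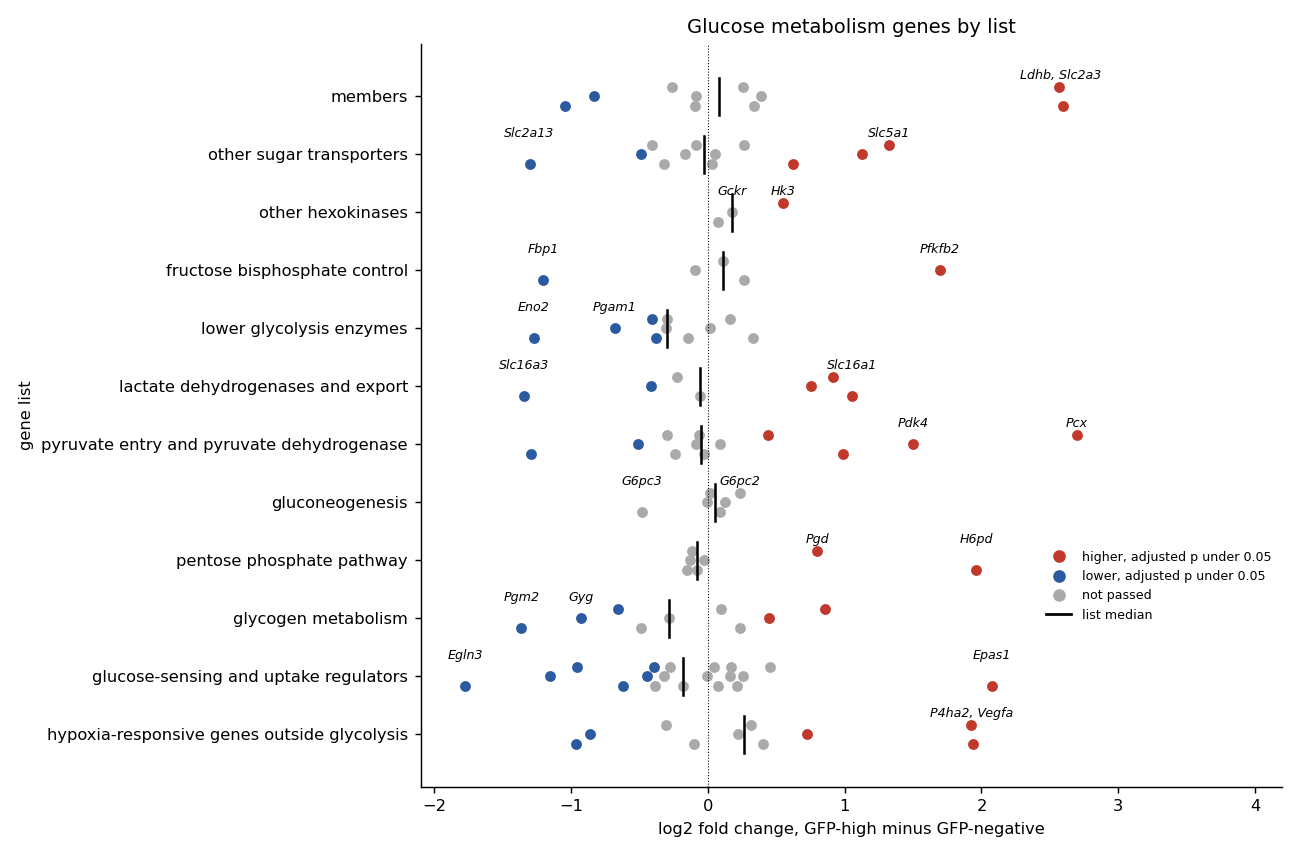
Log2 fold change, GFP-high minus GFP-negative, of the 10 members and of 100 other glucose metabolism genes in 11 lists; each dot is a gene, red where it was higher and blue where it was lower at an adjusted p under 0.05, grey where it did not pass, and black lines are list medians. Most lists hold both red and blue dots, while the lower glycolysis enzymes have blue and grey dots only.

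Of 19 measured genes that sense oxygen or glucose or control uptake, 1 was higher, 6 were lower and 12 did not pass (median -0.18), a called share of 36.8% beside the 30% of all genes. Hif1a, encoding the hypoxia-inducible factor subunit that drives many glycolysis genes, fell by 1.16 ± 0.19 (adjusted p = 0.00186 by limma), from 9.48, 9.24 and 9.12 to 8.29, 7.70 and 8.37. Epas1, encoding the related HIF-2 subunit, rose by 2.08 ± 0.25 (adjusted p = 0.00031 by limma), from 8.57, 9.33 and 8.43 to 10.55, 10.86 and 11.15. The oxygen-sensing hydroxylase gene Egln3 fell by 1.78 ± 0.28 (adjusted p = 0.00143 by limma), with GFP-high replicate 3 at 9.05 above the other GFP-high arrays at 8.03 and 8.11. Myc and Egln1, named after their values were seen, fell by 0.96 ± 0.14 and 0.62 ± 0.12.

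Hypoxia-responsive genes outside glycolysis also went both ways, 3 higher, 2 lower and 5 not passing of 10 measured (median 0.27). P4ha2, a collagen prolyl hydroxylase gene, rose by 1.93 ± 0.13, and Vegfa by 1.92 ± 0.12 (adjusted p = 1.46e-05 and 7.85e-06 by limma). Bnip3, a mitophagy receptor gene, fell by 0.96 ± 0.13. Car9 rose by 0.73 ± 0.14 and Ndrg1 fell by 0.86 ± 0.16, both named after their values were seen. Over all 11 lists 100 genes were measured, of which 20 were higher, 22 were lower and 58 did not pass. The called share of 42.0% stands beside 40% for the members and 30% for all genes, and the lists' median was -0.03.

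Over the 6 arrays the genes whose centred values lay closest to those of Ldhb were Acss2, Tcf7l2 and Pcx. Acss2, cytosolic acetyl-CoA synthetase, differed from Ldhb by a root mean square of 0.084 log2 units, and read 6.36, 6.87 and 6.72 in the first group and 9.37, 9.18 and 9.12 in the second. Tcf7l2, a transcription factor of Wnt signalling, differed by 0.107 and Pcx by 0.118. Since Ldhb is mainly a contrast between the groups, these are genes with a like contrast, picked as the closest of 22179.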

How the data were processed

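The authors deposited log2 expression values made with RMA (background correction, normalization between arrays and probe summary), per the submitters' processing notes. No version is named there, and the range of the values, 0.989 to 13.72, fits a log2 scale. RMA equalises the arrays, so a change common to nearly all genes is removed, and folds near the lower end are compressed. Rows naming several genes (1814) or none (16010) of the 41344 were left out, and single-gene rows of a gene were represented by the one with the highest mean. Of 23520 single-gene rows 23327 matched the RefSeq gene table, and 0 symbols changed.

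Values were compared with limma 3.58.1 in R 4.3.3 (lmFit, eBayes, no block, 4 residual and 4.50 prior degrees of freedom), adjusted by Benjamini-Hochberg over 22179 genes. The script was tested on simulated data. The number of arrays limits the precision. The members and the 11 pathway and 11 marker lists were chosen with earlier results of these data known. Named genes were the members, the 3 largest changes of each pathway list, Gapdh, Pkm, Ldha, Hes1 and the 3 genes most like the member that changed most. Of 114 pathway places 100 were measured and of 112 marker places 103. Figures were drawn with matplotlib 3.10.9 in Python 3.11.15. Alternatives were array centring, quantile normalization, leaving out low genes, the mean of rows, other moderation, array weights, a replicate block, leaving out each array, a minimum fold and, added after seeing the data, every row of the table.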

Additional observations from a re-analysis of the deposited data

How the results depend on the processing

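The main rows of the 10 members gave 140 values over 14 alternatives: 138 kept their direction and side of the threshold, 1 passed newly (Pfkp, without variance moderation) and 1 reversed (Hk2, -0.25 without GFP-negative replicate 3, with leave-outs up to 0.77). The number of members called was 4 with each array left out, 5 without moderation and 3 with a minimum absolute log2 fold change of 1, which Hk1 does not reach. With that minimum 2584 of all genes and 18 of the pathway genes were called, against 6661 and 42. Leaving out an array gave 5408 to 6116 of all genes and 34 to 38 pathway genes. Genes near 0 changed sign: Hkdc1 read -0.047 with array weights and -0.090 to 0.22 with an array left out, G6pc -0.0072 to 0.22, Pdk3 0.041 under quantile normalization and -0.088 to 0.015 with an array left out, and Tpi1 -0.045 to 0.064; the cause was not tested. With the replicate number as a block 6172 genes, 41 pathway genes and 4 members were called, and the calls of Gapdh (adjusted p = 0.0595) and the second Slc2a1 row (0.0671) were lost. Deviations of same-numbered arrays from their group means correlated at 0.11, -0.03 and -0.0016 over all genes, so the numbers were not taken to pair the samples. The second Slc2a1 row lost its call in 7 of 14 alternatives. No scaling moved the share of higher calls (43.4%) by over 10 percentage points. The array gives no sequencing depth, and for rows near the lower end, such as Slc2a3 in GFP-negative cells, folds are compressed.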

Other observations

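Hk2 in GFP-negative replicate 3 was the lowest of all 22179 genes relative to the other GFP-negative arrays (5.90 against 7.68 and 7.94). Only 21 genes were lower by at least 1 log2 unit in that comparison, and 168 were higher by as much. After Hk2, the next lowest was Obp2a, which read 5.55, 7.79 and 5.05 in the GFP-negative arrays and so differed between the other 2 as well. The phosphatase gene Dusp2, among the 10 lowest, read 8.60 and 8.42 against 7.32, and Calcb, encoding a calcitonin gene-related peptide, 8.86 and 9.72 against 8.14. These genes were chosen after their values were seen. The next lowest member there was Pfkm, at -0.39. The median over the 10 members was -0.19, over the hypoxia-responsive genes -0.16 and over all genes -0.01. The 3 lowest genes of the pathway lists in that array were Adm (-0.74), Slc2a13 (-0.71) and Pygl (-0.66).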
